A study of Mus musculus with 8 samples.

Results

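The 8 caveola genes were the caveolins Cav1 and Cav2, the cavins Cavin1, Cavin2 and Cavin3, and the neck protein genes Ehd2, Ehd4 and Pacsin2. They were taken by gene symbol from a count table of 54532 genes. Each of the 8 symbols matched 1 row, and all 8 had enough counts to be among the 15564 genes tested. The libraries were bulk RNA-seq of lung endothelial cells (ECs) from wild-type (WT) mouse pups, C57BL/6J per the study's methods, with 4 libraries from normoxia (room air, 21% O2) and 4 from hyperoxia (80% O2). Both groups were exposed from postnatal day 0 and harvested at day 14, and the labels name no transgene, deletion or drug for either. Per the methods, lung cells were depleted of CD45-bound cells and then collected on CD31-coated beads, which bind ECs through a surface protein (the product of Pecam1). No source states the sex of the pups, whether lungs were pooled, or whether the 4 libraries of a group came from separate pups, so p-values here measure only the spread between these libraries.

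Caveolae are small flask-shaped pits of the plasma membrane, rich in cholesterol, and they are especially dense in the capillary endothelium of the lung. Caveolins insert into the inner leaflet and oligomerise into the scaffold of the pit. Cavins coat it from the cytosol, and EHD ATPases and pacsins sit at its neck, where they hold it at the cell surface. Caveolae buffer membrane stretch, take part in transport across the endothelium and hold signalling proteins, among them the endothelial nitric oxide synthase.

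Cav1, the caveolin without which caveolae do not form outside muscle, fell by 26.8% in hyperoxia, and its partner Cav2 fell by 11.0%. Cavin3 and Ehd4 rose, by 28.7% and 9.27%. Cavin1, Cavin2, Ehd2 and Pacsin2 did not pass the test. In all, 4 of the 8 genes passed at an adjusted p under 0.05 (edgeR quasi-likelihood test, Benjamini-Hochberg over all genes tested), 2 higher and 2 lower. Over all genes tested 35.6% passed, 18.5% higher and 17.1% lower, and among the 2308 genes of at least 100 CPM (the counts of a gene scaled to a common library size) 54.2% passed, so the number of caveola genes past the test does not set them apart from other genes. When libraries were scaled by their totals, by the upper quartile or by pan-endothelial markers, 1 gene was higher and 2 were lower. No caveola gene reached an absolute log2 fold change of 1 as well, against 6.98% of all genes. In bulk samples, fewer cells of a type and less RNA per cell cannot be told apart.

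Total counts ran from 16098086 to 18300730 per library, and library sizes for CPM were normalized by the trimmed mean of M values (TMM). The endothelial markers Cdh5 and Pecam1 stood at 4121 and 2902 CPM in normoxia and at 4035 and 2822 CPM in hyperoxia, and neither passed the test. The summed level of 15 pan-endothelial markers ran from 18888 to 19842 CPM in normoxia and from 18890 to 19900 CPM in hyperoxia. The label of ECs was thus matched by the markers in all 8 libraries. Single markers of this list did move, with 5 of the 15 higher, 4 lower and 6 not past the test, and log2 fold changes from -0.79 (Tek) to 0.43 (Eng). The shares over all genes tested were 18.5% higher and 17.1% lower. Of all counts, 0.864% to 1.05% fell on mitochondrial genes in normoxia, against 1.21% to 1.43% in hyperoxia, and the part of this in the results was not tested.

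Cav1 and Cav2 lie side by side on chromosome 6 of mouse build GRCm38 (mm10), on the plus strand. Cav2 (ENSMUSG00000000058) spans 17281185 to 17289115 and Cav1 (ENSMUSG00000007655) spans 17306335 to 17341452, with 17.22 kb between the end of one and the start of the other. The 250 bases before the annotated start of each are shown because the neighbours both fell, and those of Cavin2 because it stood beside Cav1 at the top of the order of levels in hyperoxia. The sequences are from RefSeq (GRCm38.p6), at chr6:17306085-17306334 for Cav1, chr6:17280935-17281184 for Cav2 and chr1:51288876-51289125 for Cavin2, all on the plus strand and 5′ to 3′. Capitals mark matches, on either strand, to any of 6 motifs. The GC box was searched with the letters GGGCGG and the TATA box with the letters TATAAA. The third motif was the CCAAT box, searched by those 5 letters. The antioxidant response core was searched as TGACNNNGC, the hypoxia response core as ACGTG and the AP-1 motif as TGANTCA.
Cav1: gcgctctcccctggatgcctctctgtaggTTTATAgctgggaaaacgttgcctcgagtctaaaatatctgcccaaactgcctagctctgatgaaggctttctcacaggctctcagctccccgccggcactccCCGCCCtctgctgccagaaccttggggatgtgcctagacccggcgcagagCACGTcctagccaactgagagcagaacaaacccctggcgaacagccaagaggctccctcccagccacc
Cav2: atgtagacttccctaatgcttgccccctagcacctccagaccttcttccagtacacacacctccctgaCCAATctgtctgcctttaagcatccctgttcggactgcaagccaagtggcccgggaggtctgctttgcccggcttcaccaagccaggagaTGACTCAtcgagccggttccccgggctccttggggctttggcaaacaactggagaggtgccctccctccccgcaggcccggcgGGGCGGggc
Cavin2: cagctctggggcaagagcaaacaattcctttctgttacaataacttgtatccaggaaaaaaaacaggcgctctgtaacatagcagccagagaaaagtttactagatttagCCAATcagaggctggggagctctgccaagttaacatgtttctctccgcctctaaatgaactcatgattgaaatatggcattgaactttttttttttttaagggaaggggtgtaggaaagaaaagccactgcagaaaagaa
GC content was 59.6% before Cav1, 62.0% before Cav2 and 40.4% before Cavin2, against a median of 52.4% over all 32851 windows of this length. The Cav1 window held 1 GC box, 1 TATA box and 1 hypoxia response core, all read on the minus strand. The Cav2 window held 1 GC box, 1 CCAAT box and 1 AP-1 match, and the Cavin2 window held 1 CCAAT box. Such short motifs are common. A match was found in 32.7% of all windows for the GC box, 12.4% for the TATA box, 33.8% for the CCAAT box, 10.2% for the antioxidant response core, 16.6% for the hypoxia response core and 6.75% for AP-1. A promoter entry was matched for 7 of the 8 genes, and none for Cavin3.

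Cav1 had 1887, 1853, 1962 and 2019 CPM in normoxia 1 to 4, and 1402, 1388, 1523 and 1336 CPM in hyperoxia 1 to 4. Every hyperoxic library was below every normoxic one. The mean went from 1930 ± 74.8 CPM to 1412 ± 78.9 CPM (SD, n = 4 each). The log2 fold change was -0.45 (standard error (SE) 0.0523, 95% interval -0.57 to -0.34, adjusted p = 8.74e-05). Within hyperoxia, library 3 had the most Cav1, and this library also had the lowest summed level of alveolar type 1, alveolar type 2, fibroblast and mural markers of the 4. Library 4, with the least Cav1, did not have the highest of any of these sums, and a link was not tested. Without library 3 the log2 fold change of Cav1 was -0.49 (adjusted p = 6.02e-05).

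Cav2, which forms mixed oligomers with Cav1 and needs it to reach the cell surface, had 546, 487, 539 and 546 CPM in normoxia and 469, 471, 477 and 467 CPM in hyperoxia. The groups did not overlap, and the hyperoxic libraries lay close together. The mean went from 529 ± 28.5 CPM to 471 ± 4.09 CPM, and the log2 fold change was -0.17 (SE 0.0473, 95% interval -0.27 to -0.06, adjusted p = 0.0176). Cav2 thus fell with Cav1 but by less, and the ratio of the genes in each library, given below, carries the test of that difference. Its call was lost without hyperoxia 2 (adjusted p = 0.0513) and without hyperoxia 4 (adjusted p = 0.0511).

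Of the cavins only Cavin3 passed the test, and the cavins were not tested against each other. Cavin1, the coat protein that caveolae need beside Cav1, lies on chromosome 11 (100956733 to 100970887, minus strand). It ran from 1023 to 1100 CPM in normoxia and from 960 to 1065 CPM in hyperoxia, so the groups overlapped (1064 ± 41.1 against 999 ± 46.3 CPM). The log2 fold change was -0.09 (SE 0.0493, 95% interval -0.20 to 0.02, adjusted p = 0.176). Cavin2, which joins Cavin1 in the coat and bends membranes, lies on chromosome 1 (51289126 to 51302960, plus strand). It had 1155, 1112, 1189 and 1217 CPM in normoxia and 1245, 1294, 1241 and 1247 CPM in hyperoxia. All hyperoxic libraries were above all normoxic ones, but the mean moved only from 1168 ± 45.2 to 1257 ± 25.2 CPM, and the difference missed the threshold (log2 fold change 0.11, SE 0.0440, 95% interval 0.01 to 0.20, adjusted p = 0.0859).

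Cavin3, a cavin that binds protein kinase C delta, was the scarcest of the 8, with 425 to 654 counts per library. It lies on chromosome 7 (105480083 to 105482300, minus strand). It had 31.8, 24.2, 30.5 and 23.6 CPM in normoxia and 35.1, 35.5, 34.7 and 36.3 CPM in hyperoxia. The normoxic libraries were lower and more spread than the hyperoxic ones, with no overlap. The means were 27.5 ± 4.23 and 35.4 ± 0.674 CPM, and the log2 fold change was 0.36 (SE 0.0957, 95% interval 0.15 to 0.58, adjusted p = 0.0127). Of its exon bases, 22.5% overlap Gm45667, a gene on the other strand, and the use of strand in counting is not given in the sources used here. The other 7 genes share no exon bases with another annotated gene.

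Among the neck proteins, Ehd4, an EHD ATPase of the same family as Ehd2, lies on chromosome 2 (120089175 to 120154606, minus strand). It had 1261, 1164, 1204 and 1216 CPM in normoxia and 1305, 1348, 1365 and 1276 CPM in hyperoxia. The groups did not overlap, though the highest normoxic and the lowest hyperoxic library lay close together. The means were 1211 ± 39.8 and 1324 ± 40.3 CPM, and the log2 fold change was 0.13 (SE 0.0443, 95% interval 0.03 to 0.23, adjusted p = 0.0445). This call was lost in 16 of 23 other settings, among them the fits without each library other than normoxia 1 (adjusted p up to 0.119).

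Ehd2, the ATPase that keeps caveolae anchored at the surface, lies on chromosome 7 (15946958 to 15967567, minus strand). It ran from 719 to 799 CPM in normoxia and from 781 to 851 CPM in hyperoxia, with overlap. Its log2 fold change was 0.12 (SE 0.0492, 95% interval 0.01 to 0.23, adjusted p = 0.0814). Pacsin2, a membrane-curving protein of the neck, lies on chromosome 15 (83375607 to 83464606, minus strand). It ran from 145 to 155 CPM in normoxia and from 137 to 149 CPM in hyperoxia, again with overlap. Its log2 fold change was -0.04 (SE 0.0439, 95% interval -0.14 to 0.06, adjusted p = 0.534). The groups did not overlap for 5 of the 8 genes (Cav1, Cav2, Cavin2, Cavin3 and Ehd4), against 35.4% of all genes tested. The median log2 fold change was 0.03 over the 8 genes and -0.004 over all genes tested.

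**Figure D1:**
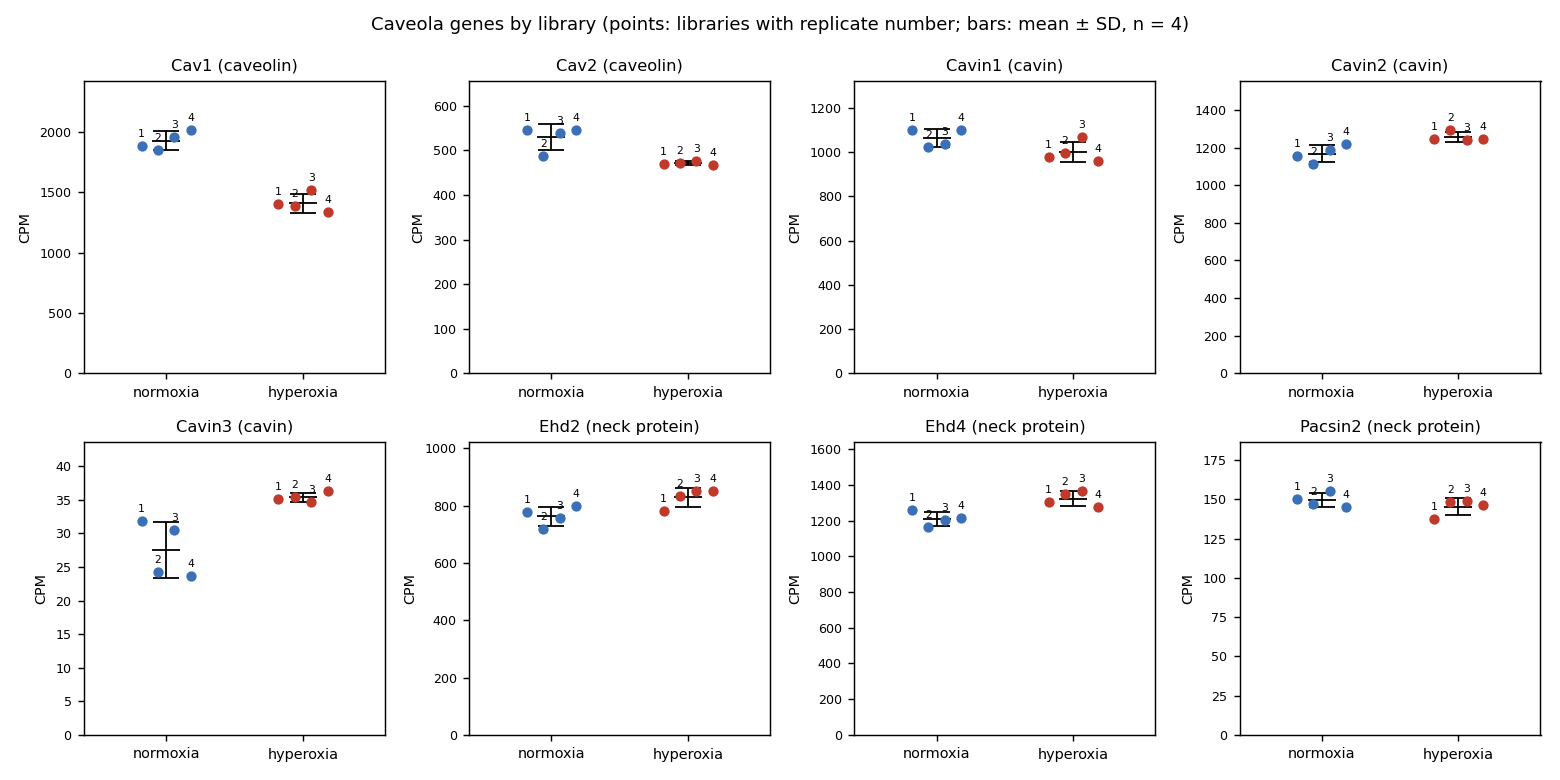
CPM of the 8 caveola genes on the y axis of each panel, starting at 0, by oxygen group, with 1 point per library labelled by its replicate number and bars for the mean ± SD (n = 4). The hyperoxic points of Cav1 lie between 1336 and 1523 CPM, all below the normoxic points, while Cavin3 and Ehd4 are higher in hyperoxia, and Cavin1, Ehd2 and Pacsin2 overlap between the groups.

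Summed by role, the caveolins went from 2460 ± 96.4 to 1883 ± 82.9 CPM, the cavins from 2260 ± 75.7 to 2291 ± 48.4 CPM and the neck proteins from 2123 ± 69.0 to 2297 ± 61.5 CPM. The caveolin sums were lower and the neck protein sums higher in hyperoxia, both without overlap, and the cavin sums overlapped. The neck protein gap was narrow, from 2188 CPM at most in normoxia to 2224 CPM at least in hyperoxia, and rests on the TMM scaling. Of the neck protein genes only Ehd4 passed, and the sums were not tested. Taken singly, 35.4% of all genes tested did not overlap either. All 8 genes together went from 6842 ± 225 to 6472 ± 176 CPM, with overlapping ranges. Their share of all counts was 0.688 ± 0.0230% in normoxia and 0.641 ± 0.0139% in hyperoxia.

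To compare genes with each other, levels were taken per gene length, as FPKM, in which counts are divided by gene length and library total. In normoxia the order was Cav1 (556 ± 22.8 FPKM), Cavin2 (379 ± 15.8), Ehd4 (299.8 ± 10.9), Cavin1 (294 ± 12.2), Cav2 (157 ± 9.06), Ehd2 (148 ± 7.10), Pacsin2 (30.2 ± 0.957) and Cavin3 (16.4 ± 2.57). Ehd4 and Cavin1 overlapped in range, as did Cav2 and Ehd2, and the other neighbours in the order did not. In hyperoxia the order was Cavin2 (409 ± 8.96 FPKM), Cav1 (408 ± 23.5), Ehd4 (329 ± 10.9), Cavin1 (277 ± 13.5), Ehd2 (161 ± 6.63), Cav2 (140 ± 1.57), Pacsin2 (29.5 ± 1.18) and Cavin3 (21.2 ± 0.383). Cav1, well above every other gene in normoxia, overlapped with Cavin2 in hyperoxia, and the other neighbours did not overlap.

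A ratio within a library does not depend on how libraries are scaled to each other, so each gene was also set against Cav1 in FPKM. Cavin2 stood at 0.690, 0.676, 0.683 and 0.679 of Cav1 in normoxia and at 1.001, 1.05, 0.919 and 1.05 of Cav1 in hyperoxia. The normoxic ratios were nearly equal, and every hyperoxic one was higher (0.682 ± 0.00599 against 1.01 ± 0.0628, 1.47 times higher). Ehd4 went from 0.540 ± 0.0248 to 0.806 ± 0.0280 of Cav1, and Ehd2 from 0.266 ± 0.00799 to 0.396 ± 0.0256, each 1.49 times higher. Cavin1, the partner of Cav1 in forming the pit, went from 0.530 ± 0.0224 to 0.679 ± 0.0109, which is 1.28 times higher. Cav2 moved least, from 0.283 ± 0.0115 to 0.345 ± 0.0159 (1.22 times higher), and Cavin3 most, from 0.0296 ± 0.00485 to 0.0521 ± 0.00374 (1.77 times higher). Pacsin2 went from 0.0543 ± 0.00263 to 0.0723 ± 0.00424 of Cav1, 1.33 times higher. For all 7 ratios the groups did not overlap, and each gave p = 0.0286 in an exact two-sided permutation test, the smallest p that 4 against 4 libraries allow, with the same value after Benjamini-Hochberg adjustment over the 7 ratios. The ratios share Cav1 as their denominator, so they are not 7 independent results. Of the 15563 other genes tested, 56.6% likewise had a higher ratio to Cav1 in hyperoxia without overlap, and 75.6% did among those of at least 100 CPM, while 1.68% had a lower one. The separation from Cav1 is thus shared with most genes.

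**Figure D2:**
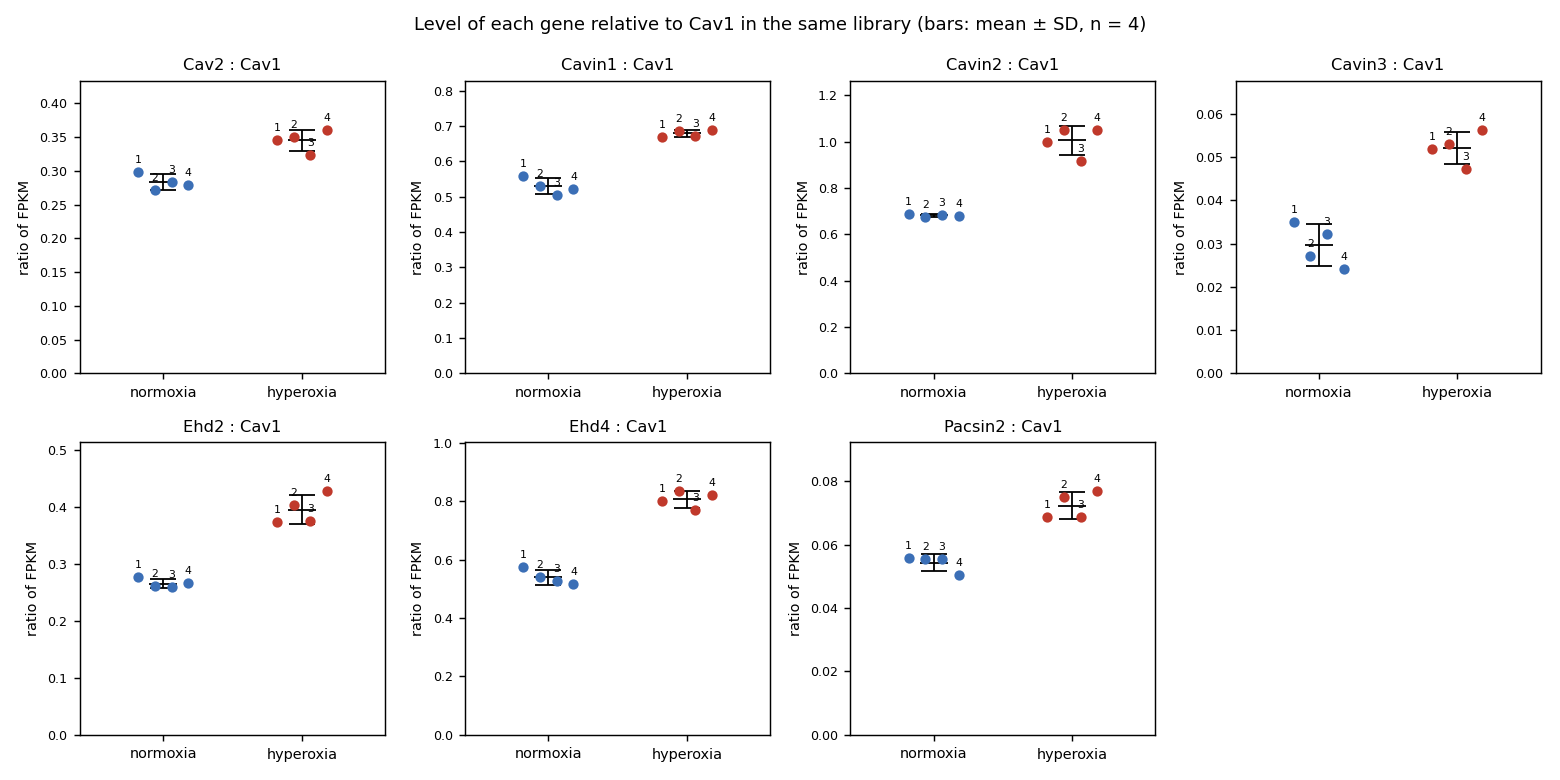
Ratio of the FPKM of each of the other 7 genes to that of Cav1 in the same library (y axis, no unit, starting at 0), by oxygen group, with 1 point per library labelled by its replicate number and bars for the mean ± SD (n = 4). In every panel the hyperoxic points lie above the normoxic ones, as for 56.6% of all other genes tested, and the Cavin2 ratio goes from 0.682 to 1.01.

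RNA of other lung cells moved with the groups. Lists of marker genes written from general knowledge held 11 type 2 and 12 type 1 alveolar epithelial markers, and 11 of 11 and 11 of 12 of these were higher in hyperoxia. Over all genes tested 18.5% were higher and 17.1% lower, and the marker counts that follow stand beside these shares. The summed level of the type 2 markers ran from 297 to 444 CPM in normoxia and from 907 to 2728 CPM in hyperoxia, and that of the type 1 markers from 770 to 813 and from 877 to 1268 CPM. Sftpc, a surfactant protein of type 2 cells, went from 106 to 1121 CPM. Lyz2, a lysozyme also made by macrophages, went from 77.3 to 225 CPM, and Ager, a receptor abundant on type 1 cells, from 25.4 to 153 CPM. Type 1 cells are themselves known to carry caveolae. The most abundant type 1 marker, Clic5, which was far above the others, did not pass (700 against 675 CPM). It made up most of the type 1 sum in both groups, so that sum understates the rise of the other type 1 markers.

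Fibroblast markers (5 of 9 tested higher, none lower) ran from 182 to 367 CPM and from 246 to 639 CPM, and mural and smooth muscle markers (6 of 10 tested higher, none lower) from 47.9 to 85.7 CPM and from 103 to 181 CPM. Col3a1, a collagen of fibroblasts, went from 78.7 to 140 CPM, and Mfap4, a microfibril protein, did not pass (94.6 against 158 CPM, adjusted p = 0.0999). The pericyte genes Rgs5 and Pdgfrb went from 28.7 to 61.8 CPM and from 9.72 to 19.9 CPM. Both cell types also have caveolae. Of the airway markers 1 of 3 tested was higher (summed 58.4 to 79.8 against 78.9 to 109.9 CPM). It was Tppp3 (65.6 and 92.7 CPM), while Foxj1, which drives ciliated cells, stood at 1.24 and 1.02 CPM. Of the 5 mesothelial markers only 2 had enough counts to be tested, and these 2 were higher, namely Krt19 (0.899 and 7.24 CPM) and Msln (0.266 and 1.47 CPM). The list summed to 0.552 to 2.14 CPM in normoxia and 3.95 to 11.9 CPM in hyperoxia. Msln was tested only through its hyperoxic libraries. A gene near 0 in normoxia can enter the test in this way, so counts of higher genes in scarce lists carry little weight. Leukocyte markers ran from 150.05 to 305 CPM in normoxia and from 160.5 to 299 CPM in hyperoxia, with 1 of 10 lower, and the most abundant of them, Csf1r and Ptprc (CD45), had adjusted p = 0.726 and 0.994. Adipocyte markers ran from 16.1 to 36.8 CPM and from 22.8 to 64.6 CPM, with neither tested gene called (Fabp4 at 22.1 and 33.4 CPM, Plin4 at 0.696 and 0.906 CPM). Of the 6 genes in this list, 2 had enough counts to be tested, and only 1, Lep, had no count in any library.

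Endothelial subtypes moved as well. Markers of general capillary ECs ran from 9770 to 11112 CPM in normoxia and from 8033 to 9170 CPM in hyperoxia, with 6 of 8 lower and 1 higher. The median log2 fold change of these 8 was -0.55, and the 2 most abundant are named here. The phosphatase gene Ptprb fell from 3691 to 2488 CPM, and the higher one was Cd93 (1979 and 2320 CPM). Markers of aerocytes, the large capillary ECs that face the alveolar air, ran from 4497 to 5408 CPM and from 6605 to 7299 CPM. Of these, 7 of 8 were higher, and the median log2 fold change was 0.66. The 2 most abundant moved by less, namely Prx (854 and 1258 CPM, log2 fold change 0.56) and Kdr (1956 and 2222 CPM, 0.18). Kdr codes for a receptor of vascular endothelial growth factor. Lymphatic markers ran from 1251 to 1340 CPM and from 1880 to 2147 CPM, with 6 of 7 higher. Most of this sum was the hyaluronan receptor Lyve1 (954 and 1602 CPM), so the sum mainly followed that gene. Flt4 was also among the higher ones (289 and 326 CPM). Kdr stands in both the pan-endothelial and the aerocyte list, Pdpn in both the lymphatic and the type 1 list, and Plvap, described below, in the general capillary list too. The part of these shifts between EC types in the caveola genes was not tested.

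With the mean log2 level of the alveolar type 1 and type 2 markers as a covariate, the log2 fold change of Cav1 was -0.19 (adjusted p = 0.606), and none of the 8 genes passed. That fit left 190 genes higher and 40 lower of all tested, and since the marker level moved with oxygen, the 2 cannot be told apart in these libraries. With the fibroblast and mural markers as the covariate, Cav1 stayed lower (-0.33, adjusted p = 0.0199), and Cavin3 did not pass (0.21, adjusted p = 0.411). With libraries scaled to the pan-endothelial markers, Cav1 had a log2 fold change of -0.47.

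**Figure D3:**
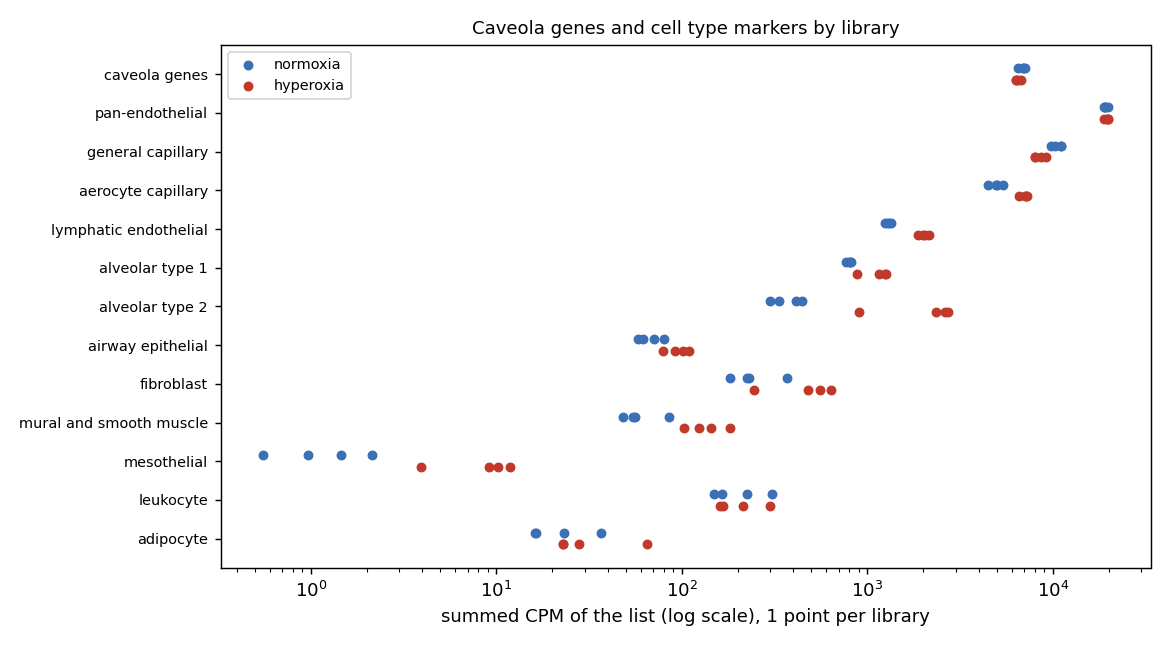
Summed CPM on a log x axis for the 8 caveola genes and for each cell type marker list, with 1 point per library, normoxia in blue and hyperoxia in red. The caveola and pan-endothelial rows overlap between the groups, and the alveolar type 2 row runs from 297 to 444 CPM in normoxia and from 907 to 2728 CPM in hyperoxia.

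Lists of 44 further genes of caveola biology and of the clathrin route were written from general knowledge. Of the 42 tested, 13 were higher, 9 were lower and 20 did not pass, beside the 35.6% of all genes, with a median log2 fold change of 0.05. Further members of the same gene families came first. Cav3, the muscle caveolin, had no count in any library. Cavin4, the muscle cavin, was scarce and fell from 8.29 to 3.09 CPM, or by 1.42 on the log2 scale (SE 0.168, adjusted p = 0.000102). The recycling ATPase Ehd3 rose from 13.9 to 22.1 CPM (0.67, adjusted p = 0.000399) and the scarce Pacsin3 rose from 1.21 to 2.11 CPM (0.80, adjusted p = 0.0353). Ehd1, the abundant recycling EHD protein, did not pass (320 against 307 CPM, adjusted p = 0.414).

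Among 11 tested endothelial proteins that sit in or work with caveolae, 2 were higher, 4 were lower and 5 did not pass. The water channel Aqp1 fell from 2571 to 1666 CPM, with normoxic libraries from 2491 to 2608 CPM and hyperoxic ones from 1567 to 1751 CPM. Its log2 fold change was -0.63 (SE 0.0464, adjusted p = 3.88e-06). The fatty acid receptor Cd36 fell from 1773 to 1164 CPM, by 0.61 on the log2 scale (SE 0.0492, adjusted p = 7.22e-06). Both belong to the same list as Plvap, which makes the diaphragm across the mouth of caveolae and did not pass (1822 against 1835 CPM, adjusted p = 0.884). Nos3, the nitric oxide synthase held by Cav1, did not pass either (122 against 125 CPM, adjusted p = 0.714), nor did the receptor Acvrl1 (1679 against 1624 CPM, adjusted p = 0.404). The lipoprotein receptor Scarb1 (-0.37) and the BMP receptor Bmpr2 (-0.21) were also lower, and the arginine transporter Slc7a1 (0.47) was higher. The channel gene Trpc4, near 0 in normoxia (0 to 0.331 CPM), had 1.48 to 2.46 CPM in hyperoxia (adjusted p = 0.000398). It had enough counts to be tested only through its hyperoxic libraries. Its call, and its place among the higher genes of this list, therefore carry little weight.

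Of 11 genes that pinch off, fuse or anchor caveolae, 6 were higher, 2 were lower and 3 did not pass. Over all genes tested, 18.5% were higher and 17.1% lower. Flna, the actin cross-linker filamin A that tethers caveolae, had 622 to 630 CPM in normoxia and 855 to 969 CPM in hyperoxia. It rose by 0.52 on the log2 scale (SE 0.0476, adjusted p = 1.62e-05). The kinase gene Src, whose product phosphorylates caveolin-1, rose from 4.58 to 13.0 CPM (1.51, SE 0.158, adjusted p = 4.48e-05), and the kinase Prkca rose from 5.40 to 10.3 CPM (0.93, adjusted p = 0.00218). Prkca had its lowest hyperoxic level, 7.04 CPM, in library 3. The related kinase Fyn rose from 217 to 238 CPM (0.13, adjusted p = 0.0456). Dnm2, the dynamin that cuts the neck, did not pass (272 against 261 CPM, adjusted p = 0.228), nor did the fusion protein Vamp3 (210 against 220 CPM, adjusted p = 0.303).

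Flotillins build scaffolds without caveolin, and neither Flot1 (adjusted p = 0.703) nor Flot2 (adjusted p = 0.319) passed. The related Stom fell from 195 to 128 CPM (-0.61, adjusted p = 6.51e-05), and the raft adaptor Pag1 rose from 9.93 to 15.95 CPM (0.69, adjusted p = 0.031). The clathrin route is the other main path into the cell, and 2 of its 11 genes were higher, 1 was lower and 8 did not pass. The heavy chain Cltc did not pass (458 against 499 CPM, adjusted p = 0.0742), nor did the adaptor subunits Ap2m1 (0.0614) and Ap2b1 (0.579) or the coat adaptor Epn1 (0.547), the values in brackets being adjusted p. The light chain Cltb rose from 89.7 to 160.2 CPM (0.84, SE 0.0661, adjusted p = 6.19e-06), and the coat adaptor Epn2 fell from 152 to 119 CPM (-0.35, adjusted p = 0.000187).

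**Figure D4:**
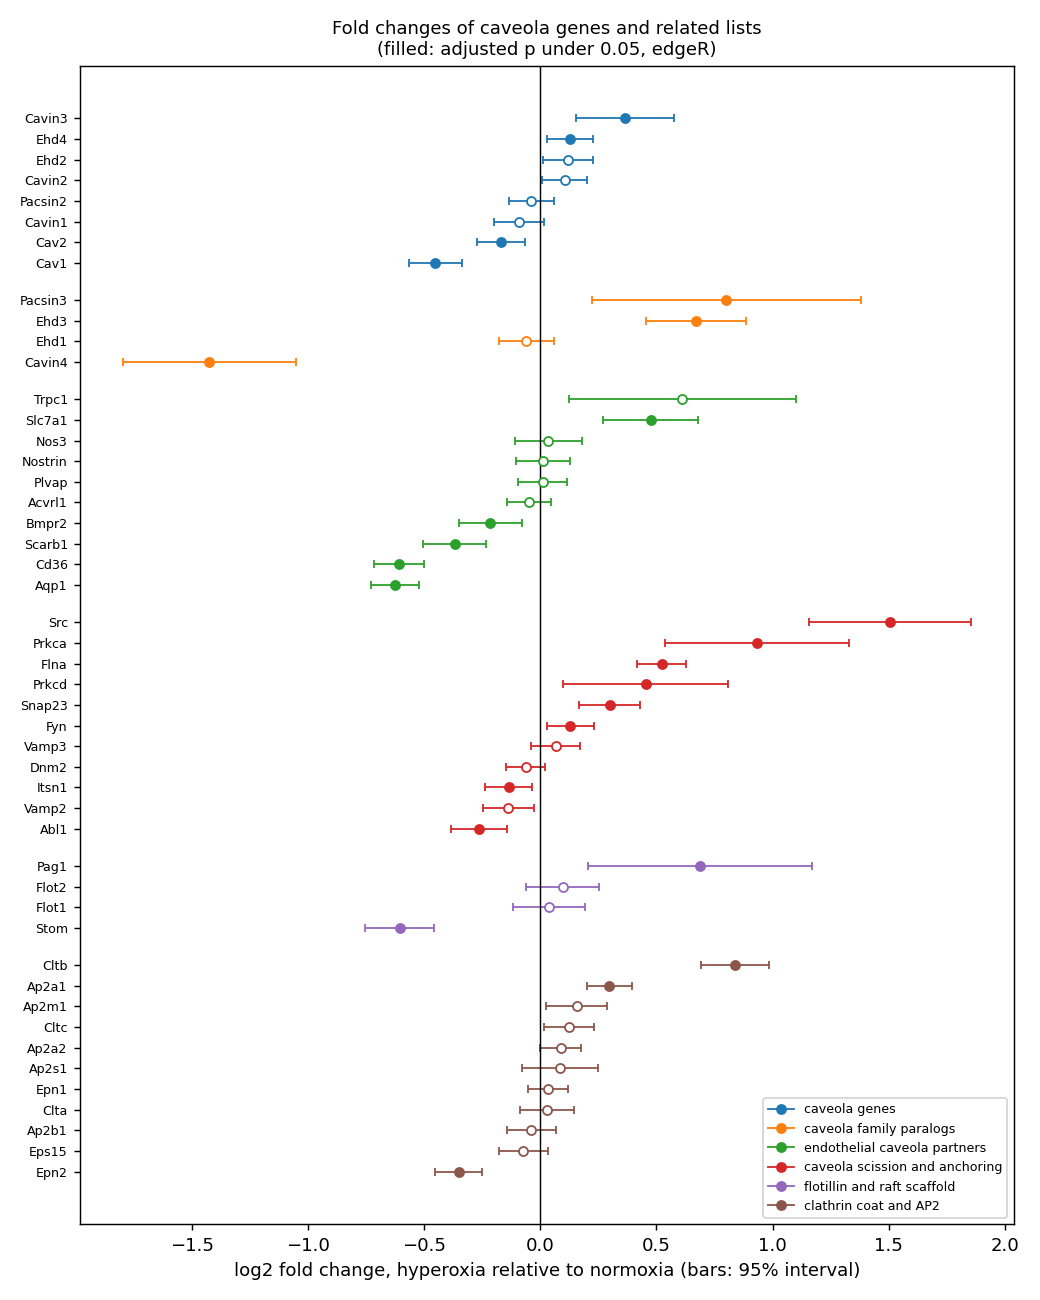
Log2 fold change, hyperoxia relative to normoxia (x axis), with 95% intervals, for the caveola genes and 5 related gene lists, 1 row per gene and 1 colour per list. Filled points passed at an adjusted p under 0.05. Cav1 at -0.45 is the lowest of the caveola genes, and Cd36, Aqp1, Stom and Cavin4 lie below it. Trpc4, near 0 in normoxia, and Pacsin1, under 1 CPM in both groups, are left out.

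Around Cav1 and Cav2, within 250 kb on either side, 6 of 10 annotated genes were tested. Tes, which codes for an actin-binding protein, rose from 22.5 to 38.3 CPM (0.77, SE 0.0772, adjusted p = 3.32e-05). Of the genes between Tes and Cav2, the long non-coding RNA D830026I12Rik fell from 7.67 to 3.42 CPM (-1.16, SE 0.139, adjusted p = 0.000108). The antisense gene Gm4876, which overlaps Tes, fell from 2.43 to 1.40 CPM (-0.79, adjusted p = 0.0113), and reads of the pair cannot be told apart if strand was not used. On the other side, Met, the receptor of hepatocyte growth factor, had 4.23 and 6.49 CPM (0.62, SE 0.255, adjusted p = 0.0815) and the groups overlapped. Of the tested genes around the caveolin pair, Tes was thus called higher, Gm4876 and D830026I12Rik lower, and Met not.

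**Figure D5:**
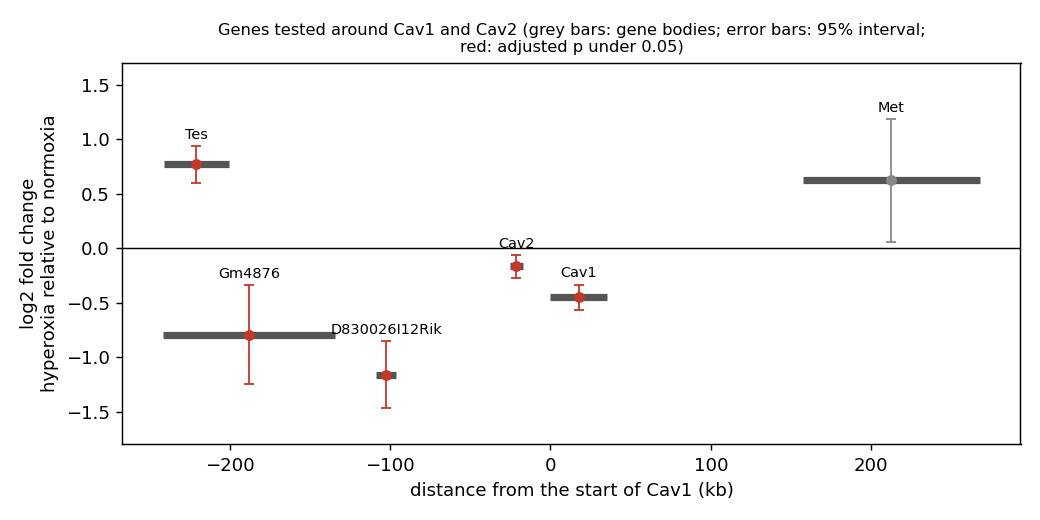
Log2 fold change, hyperoxia relative to normoxia (y axis, bars for the 95% interval), of the 6 tested genes around Cav1 and Cav2 against their distance from the start of Cav1 in kb (x axis). Grey bars are gene bodies to scale, and red points passed at an adjusted p under 0.05. Cav1 and Cav2 lie below 0 and Tes lies above it.

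The genes whose pattern over the 8 libraries lay nearest to that of Cav1 were sought among the 9077 genes that code for proteins and reached 10 CPM in mean, by the root mean square difference of log2 CPM after centring each gene. The nearest were Zfp740 (difference 0.0399), St3gal4 (0.0427), Ccdc125 (0.0434), Anp32e (0.0442) and BC028528 (0.0458), with log2 fold changes between -0.46 and -0.39. No other caveola gene was near Cav1 on this measure. Cav2 ranked 1449 of the 9077 (difference 0.153), and Cavin3 ranked 7948 (0.443). Nearest to Cavin1 were Anapc4 (0.0266), 1700123O20Rik (0.0289), Pank3 (0.0295), Prkd3 (0.0301) and Pak4 (0.0304), while Cav2 ranked 272, Pacsin2 ranked 492 and Cav1 ranked 6050. The measure does not scale the size of a change, so genes with fold changes of like size come out near. By this measure Cav2 lay nearer to Cavin1 (0.0597) than to Cav1 (0.153). Their log2 fold changes were -0.17 for Cav2, -0.09 for Cavin1 and -0.45 for Cav1, and shared regulation was not tested.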

How the data were processed

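ECs were isolated on CD31-coated beads after removal of CD45-bound cells, per the study's methods, and sequenced with paired reads on a NovaSeq machine. Per the labels, libraries were made with a SMARTER mRNA-Seq kit. The authors deposited whole-number gene counts, and FPKM values made from them, in 1 table each for 8 libraries. The submitters' processing notes name HISAT2 2.0.5, featureCounts 1.5.0-p3 and build mm10. Use of strand and handling of reads that match several genes are not given in the sources used here. Library 1 to 4 of a group are numbered as in the sample titles.

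Counts were tested with edgeR 4.0.16 in R 4.3.3 (quasi-likelihood, TMM, filterByExpr, group as the only term), with Benjamini-Hochberg adjustment over 15564 genes. SE and 95% intervals follow from the F statistic. FPKM served for levels between genes and for ratios to Cav1. The study had used DESeq2. Alternatives were DESeq2 1.42.0, limma 3.58.1 (voom, or log2 of FPKM plus 1 or 0.1), other normalizations and filters, marker scores as covariates, the replicate number as a block, and leaving out each library.

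The members and the gene lists were chosen with earlier results of these data known. Named genes were, by rule, all 8 members, the 4 most abundant genes of each related list and the 2 that passed with the largest change, the 2 most abundant of each marker list, tested genes within 250 kb of the caveolins, and the 5 nearest patterns to Cav1 and to Cavin1. Nos3, Scarb1, Bmpr2, Slc7a1, Pacsin1, Cav3, Gm45667, Tek, Eng, Pdpn and Lep were named outside the rule, after their values were seen. The script was tested on simulated counts. Coordinates and lengths of the 8 members equalled those of the GENCODE annotation of GRCm38. Libraries of a group differed by more than counting noise.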

Additional observations from a re-analysis of the deposited data

Results flagged for a closer look

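Groups of 4 values were formed in each oxygen group from the 8 genes, their ratios to Cav1 and the sums of the related gene lists and marker lists. Among these 64 groups, 4 held a library set apart from the other 3 by more than the 95% critical value of Dixon's test, where chance gives about 3.2. Cav2 was lowest in normoxia 2, at 487 CPM against 539 to 546 CPM in the others. Cavin2 was highest in hyperoxia 2, at 1294 CPM against 1241 to 1247 CPM. The ratio of Pacsin2 to Cav1 was lowest in normoxia 4, at 0.0504 against 0.0555 to 0.0558. The summed adipocyte markers were highest in hyperoxia 4, at 64.6 CPM against 22.8 to 27.8 CPM.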

How the results depend on the processing

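The fall of Cav1 passed in 22 of 23 alternatives, with log2 fold changes from -0.49 to -0.42 when 1 library was left out and -0.47 to -0.44 in the fits without a covariate. It was lost only with the alveolar epithelial covariate, where none of the 8 genes passed (0 in all, 0 higher, 0 lower), and where Cavin1 (0.10, adjusted p = 0.818) and Pacsin2 (0.019, adjusted p = 0.971) turned positive. The fibroblast and mural covariate left 1 (0 higher, 1 lower). Cavin3 was lost with these 2 covariates alone, and Cav2 in 6 of 23 alternatives. The cause of these losses was not tested.

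Against 4 genes past the test (2 higher, 2 lower), 1 was higher under upper quartile normalization, library totals, pan-endothelial scaling, protein-coding genes only or no filter, since Ehd4 was lost. With at least 10 CPM, 4 were higher, adding Cavin2 (adjusted p = 0.0330) and Ehd2 (0.0392), and DESeq2 added Cavin2. With log2(FPKM + 1) and no filter, 2 passed (1 higher, 1 lower), and 0 passed with a log2 change of 1 also required. Leaving out 1 library gave 2 to 4 in all, 1 to 2 higher and 1 to 2 lower, with 2 in all without hyperoxia 2 and without hyperoxia 4.

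The replicate number as a block gave 2 (1 higher, 1 lower), with Cav1 and Cavin3 still past the test. Deviations of same-numbered libraries had correlations of 0.119, 0.0361, -0.125 and -0.14, and 1 of 8 libraries correlated best with its own number, so the numbers were not taken as pairs. An exact permutation of ratios within such pairs cannot go below p = 0.125, so 0 of 7 could pass under this block. The ratios held in the other alternatives run. Counts of related genes and of cell type markers were recomputed only with DESeq2, with its size factors in edgeR, with the block and without each library, and stayed within 1.5 times there.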
